A study of Mus musculus with 9 samples.

Results

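The AP-1 family was followed as 10 genes: Jun, Junb, Jund, Fos, Fosb, Fosl1, Fosl2, Atf3, Maff and Batf3. They were taken from a table of 38940 genes by exact match of the gene name, whatever their values, and all 10 were found. RNA-seq had been carried out on mouse embryonic stem cells (ESCs) in 3 groups of 3 libraries. Control cells were Yap f/f Taz f/f, with loxP sites around parts of both genes. Taz KO cells were Yap f/f Taz ∆/∆, and double KO cells were Yap ∆/∆ Taz ∆/∆. The genotype field of the double KO libraries repeats the Taz KO genotype, so titles and descriptions, which match, define the groups here. All cells grew in N2B27 on a fibronectin coat, and the medium held 4 ng/ml Lif, the GSK3 inhibitor CHIR99021 at 3 µM and the MEK inhibitor PD0325901 at 0.4 µM. Cre-ERT2 had been introduced on a piggyBac transposon under the CAG promoter, and 4-OHT, which activates it, was used at 500 nM. Whether control cells also received 4-OHT is not stated in the labels, nor how many clones each genotype represents.

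AP-1 is a dimer of bZIP proteins, which hold each other by a leucine zipper and grip DNA with a basic region. JUN proteins can pair with themselves, whereas FOS proteins need a JUN partner, and ATF3, MAF and BATF proteins join the same network of dimers. Many of the genes are immediate-early genes, whose transcripts appear within minutes of growth factor or stress signals and decay quickly. At enhancers AP-1 sites often lie beside sites of the TEAD factors, through which the co-activators YAP and TAZ act.

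Values are FPKM, fragments per kilobase of transcript scaled by depth, as the authors deposited them, and a group value is the mean ± SD over n = 3 libraries. The values were whole multiples of 1 read, which gave recovered totals of 18.7 to 23.5 M reads per library. Differences were tested with limma on log2(FPKM + 0.5) over the 11674 genes with a mean of at least 1 FPKM, and an adjusted p under 0.05 counted as a call. This scale understates the change of low genes. Of the 10 members, 6 (Jun, Junb, Jund, Fos, Atf3 and Maff) were tested, and the other 4 are given by their values. In the targeted genes, Yap1 stood at 18.4 ± 0.573 FPKM in control, 18.3 ± 0.346 in Taz KO, with 4.25 ± 0.334 in double KO, or 23.0% of control. Wwtr1, which encodes TAZ, stood at 12.1 ± 0.847, 10.8 ± 1.58 and 13.9 ± 0.772 FPKM, but a value summed over a gene cannot show the loss of an exon. The 9 markers of ESCs summed to 5017 to 5391 FPKM in control, 4203 to 4540 in Taz KO, with 2646 to 2882 in double KO. The most abundant genes dominate such a sum. Over the 9 markers the median log2 difference from control was -0.31 in double KO and -0.05 in Taz KO, where 0 were called. Separate cultures are not stated for the libraries, and p-values therefore reflect only how these libraries vary, which may be technical. Libraries with the same number in the title deviated together, clearly for 2 and 3 and less for 1 (correlations of 0.192 to 0.423). A fit that blocks on the number is therefore quoted wherever it changes the call of a member. With that block, 1 ESC marker was called higher and 1 lower in Taz KO against control. Wwtr1 was then called higher in double KO against Taz KO (adjusted p by limma of 0.0657 without and 0.0191 with the block).

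The starts of the 3 JUN genes are shown because these genes carried the largest differences, and because the Jun start holds well-known elements to which JUN dimers themselves bind. Each line gives the 250 bases before the RefSeq start on GRCm38.p6, 5′ to 3′ on the gene's strand. Jun lies on the minus strand at chr4:95052223-95052472, Junb on the minus strand at chr8:84978749-84978998 and Jund on the plus strand at chr8:70697489-70697738. The RefSeq start of Jund, at 70697739, lies upstream of the GENCODE one at 70698949. The bases just before the GENCODE start of Jund were not searched, so its window may not describe that start. Capitals mark matches to the motifs searched.
Jun: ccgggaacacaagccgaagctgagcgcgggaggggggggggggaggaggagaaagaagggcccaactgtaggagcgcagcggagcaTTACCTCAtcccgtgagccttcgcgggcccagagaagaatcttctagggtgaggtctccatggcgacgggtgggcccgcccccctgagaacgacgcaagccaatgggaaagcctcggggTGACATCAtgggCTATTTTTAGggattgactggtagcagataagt
Junb: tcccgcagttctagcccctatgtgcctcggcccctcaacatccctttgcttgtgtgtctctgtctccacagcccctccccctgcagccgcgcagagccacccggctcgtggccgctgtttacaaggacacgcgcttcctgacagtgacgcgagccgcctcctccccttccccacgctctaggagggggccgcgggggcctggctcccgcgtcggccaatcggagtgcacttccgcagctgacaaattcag
Jund: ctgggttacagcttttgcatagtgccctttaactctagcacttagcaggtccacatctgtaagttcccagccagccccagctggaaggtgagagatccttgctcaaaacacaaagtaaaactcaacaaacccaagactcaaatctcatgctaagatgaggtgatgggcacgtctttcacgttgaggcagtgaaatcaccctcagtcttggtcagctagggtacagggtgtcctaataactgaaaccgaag

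In the Jun window the capitals are, in order, the distal JUN element TTACCTCA at 164 to 157 bases before the start, the proximal JUN element TGACATCA at 45 to 38, and the MEF2 element CTATTTTTAG at 33 to 24. These 3 elements were matched on either strand in 0.728%, 2.93% and 0.508% of 32851 RefSeq windows of the same length, where the MEF2 share counts every sequence of that factor's consensus. The Junb and Jund windows held none of the motifs searched, which also included TGACTCA (the TPA response element, found in 4.46% of windows), TGACGTCA (the cAMP response element, 1.55%), GGAATG (a TEAD element, 12.6%) and the CArG box of SRF (1.47%). The Jun and Junb windows were GC-rich, at 61.2% and 66.4%, against 47.6% for Jund and a median of 52.4% over all windows. RefSeq windows were found for 9 of the 10 members, 11 windows in all. Outside Jun, matches stood only at Atf3, with the MEF2 consensus as CTATTAATAG at 22 to 13 bases before the start, and at Maff, with TGACGTCA at 29 to 22 bases before its start 2 and TGACATCA at 45 to 38 bases before its start 3. The proximal JUN element begins 45 bases before the start at both Jun and Maff. A match describes the letters of a window and was not tested for binding.

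All 3 JUN genes rose in double KO cells, and Jun rose most. Against control, Jun was 10.2-fold, Jund 4.25-fold and Junb 2.98-fold higher by the ratio of means, whereas Fos, Atf3 and Maff did not pass the test. These 3 calls among 6 tested members stand beside 25.3% of all 11674 genes called in that comparison, made up of 12.4% higher and 12.9% lower. The median difference was 1.19 on the log2(FPKM + 0.5) scale over the 6 tested members and -0.02 over all genes. In bulk RNA, more cells of a type and more RNA per cell cannot be told apart.

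**Figure D1:**
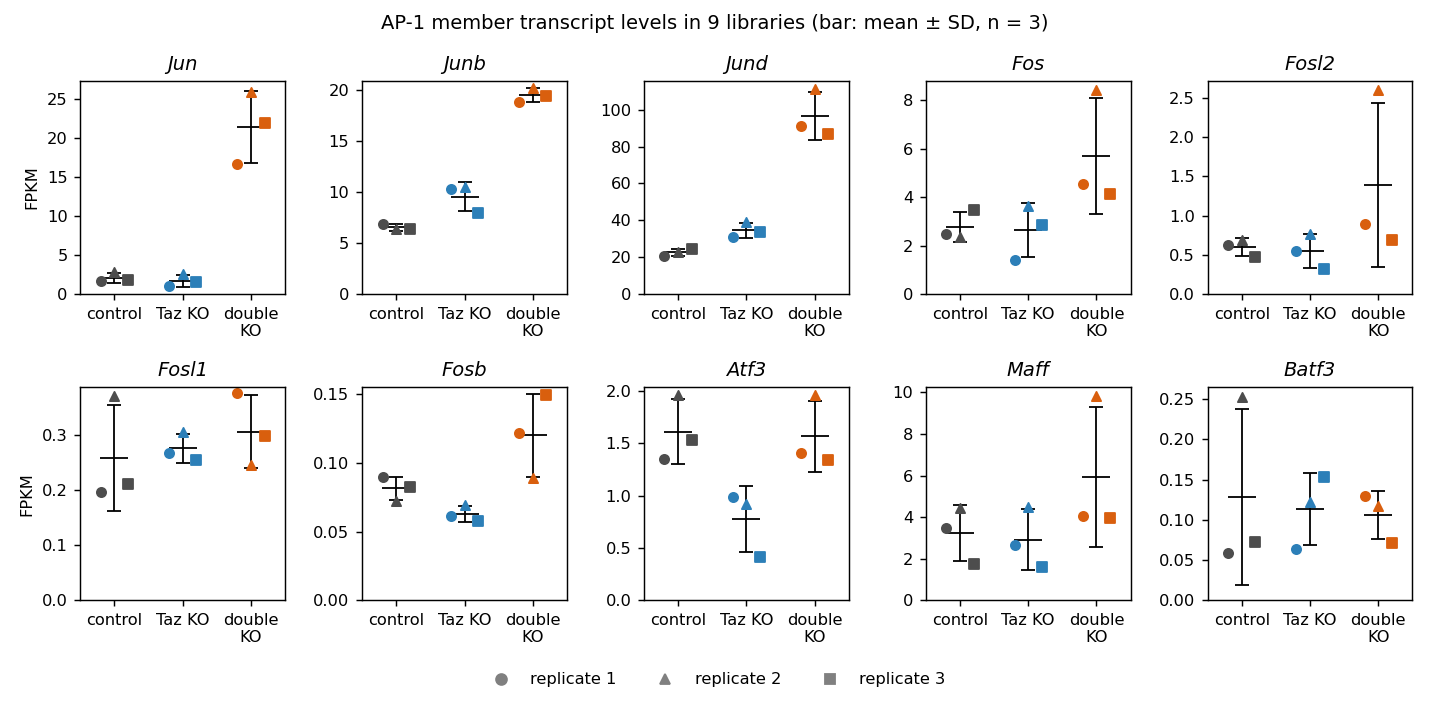
FPKM of each of the 10 members in the 9 libraries, by group, with its own linear axis from 0 for each gene. Points are libraries, shaped by replicate number, and bars give mean ± SD (n = 3). The double KO points of Jun, Junb and Jund lie above all control and Taz KO points, and double KO 2 is highest for these genes and for Fos, Fosl2 and Maff.

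Jun (ENSMUSG00000052684, minus strand of chromosome 4, 95049034 to 95052222 on GRCm38) encodes c-JUN, the founding subunit and the main substrate of the JNK kinases. It read 1.64, 2.84 and 1.84 FPKM in control 1 to 3, 1.01, 2.52 and 1.54 in Taz KO, and 16.6, 25.8 and 21.9 in double KO. The lowest double KO library lay far above the highest of the other 6, and control and Taz KO overlapped. The double KO values rest on 1157, 1969 and 1368 reads. Means were 2.11 ± 0.643, 1.69 ± 0.770 and 21.4 ± 4.60 FPKM. Jun rose by 3.08 (SE 0.27, 95% interval 2.46 to 3.70) on the log2(FPKM + 0.5) scale in double KO against control (limma, adjusted p = 0.000246). This was the difference ranked 2 from the highest of 11674 genes. Between libraries with the same number, double KO was 10.1-, 9.07- and 11.9-fold control, and so similar across the 3 numbers. Against Taz KO the ratio was 12.7 and the log2 difference 3.36 (SE 0.27, adjusted p = 0.000475 by limma), the highest of all genes tested. Taz KO against control gave -0.29 (95% interval -0.91 to 0.34, adjusted p = 0.827 by limma).

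Jund (ENSMUSG00000071076, plus strand of chromosome 8, 70698949 to 70700616) encodes JunD, the subunit that many resting cells keep at a steady level. Its values were 20.5, 23.1 and 24.4 FPKM in control, 30.9, 39.0 and 33.8 in Taz KO, and 91.2, 111 and 86.8 in double KO. The 3 groups did not overlap, in the order control, Taz KO, double KO, with means of 22.7 ± 2.00, 34.6 ± 4.12 and 96.4 ± 13.1 FPKM. Jund rose by 2.06 (SE 0.12, 95% interval 1.78 to 2.34) in double KO against control on the log2(FPKM + 0.5) scale (limma, adjusted p = 4.74e-05), a difference that ranked 17. It also rose by 1.46 (SE 0.12) against Taz KO (limma, adjusted p = 0.000521). Taz KO stood above control by 0.60 (SE 0.12, 95% interval 0.31 to 0.88), and limma gave an adjusted p of 0.0615 without and 0.00423 with the replicate block. Of 19 alternatives it was also called without double KO 2 (adjusted p = 0.0329 by limma) and with libraries numbered 1 and 3 only (0.0428).

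Junb (ENSMUSG00000052837, minus strand of chromosome 8, 84974484 to 84978718) encodes JunB, a subunit with weaker activity than c-JUN on many promoters. It measured 6.88, 6.38 and 6.35 FPKM in control, 10.3, 10.5 and 7.95 in Taz KO, and 18.8, 20.2 and 19.4 in double KO. These groups also did not overlap, and the double KO libraries lay close together. Means were 6.54 ± 0.300, 9.57 ± 1.40 and 19.5 ± 0.702 FPKM. Junb rose by 1.51 (SE 0.10, 95% interval 1.27 to 1.74) in double KO against control on the log2(FPKM + 0.5) scale (limma, adjusted p = 7.93e-05). Against Taz KO it rose by 1.00 (SE 0.10, adjusted p = 0.00138 by limma). Taz KO against control gave 0.51 (SE 0.10, 95% interval 0.27 to 0.74), with an adjusted p by limma of 0.0580 without and 0.00910 with the replicate block, and of 0.0376 without Taz KO 3.

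Fos (chromosome 12, 85473890 to 85477273, plus strand) encodes c-FOS, a short-lived partner of JUN and a classical immediate-early product. It read 2.46, 2.36 and 3.48 FPKM in control, 1.42, 3.64 and 2.85 in Taz KO, and 4.52, 8.43 and 4.12 in double KO. Each double KO library exceeded each of the other 6, but double KO 2 stood well above its group. Means were 2.77 ± 0.621, 2.64 ± 1.12 and 5.69 ± 2.38 FPKM. The difference of double KO from control was 0.87 (SE 0.33, 95% interval 0.14 to 1.61), with an adjusted p by limma of 0.0799 without and 0.0225 with the replicate block, and of 0.0483 without Taz KO 1. Double KO against Taz KO gave 0.99 (SE 0.33), with 0.0777 without and 0.0173 with the block by limma, and 0.0357 without Taz KO 2. By library number, double KO was 1.84-, 3.57- and 1.18-fold control, and so unlike Jun the size varied between numbers. Taz KO against control gave -0.11 (95% interval -0.85 to 0.62, adjusted p = 0.968 by limma).

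Fosl2 (chromosome 5, plus strand), which encodes FRA-2, lay under the filter. It read 0.623, 0.694 and 0.475 FPKM in control, 0.555, 0.765 and 0.325 in Taz KO, and 0.892, 2.60 and 0.688 in double KO. Only double KO 2, with 365 reads, stood apart, and double KO overlapped control. Without a filter on low values, limma gave a difference of 0.66 (95% interval -0.14 to 1.46, adjusted p = 0.293) from control.

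Fosl1 (chromosome 19, plus strand), which encodes FRA-1 and is often described as a gene that YAP and AP-1 act on in epithelial and cancer cells, was close to silent. Its libraries ranged from 0.197 to 0.370 FPKM in control, 0.255 to 0.306 in Taz KO, with 0.245 to 0.376 in double KO. The groups overlapped. Group totals were 29 reads in control (95% exact Poisson interval 19.4 to 41.6), 30 in Taz KO (20.2 to 42.8) and 34 in double KO (23.5 to 47.5), where the intervals cover counting error only. Fosb (chromosome 7, minus strand), the FOS gene best known from neurons, ranged from 0.0722 to 0.0894 FPKM in control, 0.0580 to 0.0695 in Taz KO, with 0.0891 to 0.149 in double KO. Its group totals were 20, 15 and 29 reads, with exact Poisson intervals of 12.2 to 30.9, 8.40 to 24.7 and 19.4 to 41.6 that overlap. Its Taz KO libraries all lay below its control libraries, where limma without a filter gave an adjusted p of 0.887. Its double KO libraries all lay above its Taz KO libraries, and limma without a filter gave an adjusted p of 0.135 there. Without a filter, limma called neither gene in any comparison. For Fosb in double KO against Taz KO its 95% interval was 0.03 to 0.24 (unadjusted p = 0.0155 by limma), at these low read totals.

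Atf3 (ENSMUSG00000026628, minus strand of chromosome 1, 191170296 to 191218039) encodes a stress-induced bZIP protein that often represses. It read 1.35, 1.96 and 1.53 FPKM in control, 0.992, 0.920 and 0.411 in Taz KO, and 1.41, 1.96 and 1.34 in double KO. The Taz KO libraries were the 3 lowest of the 9, and control and double KO overlapped. Means were 1.61 ± 0.310, 0.775 ± 0.317 and 1.57 ± 0.340 FPKM. Taz KO differed from control by -0.75 (SE 0.22, 95% interval -1.26 to -0.25), with an adjusted p by limma of 0.161 without and 0.0251 with the replicate block. Double KO against Taz KO gave 0.72 (SE 0.22), with 0.0657 without and 0.0106 with the block by limma. Double KO against control gave -0.03 (95% interval -0.54 to 0.47, adjusted p = 0.928 by limma).

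Maff (chromosome 15, 79346621 to 79359076, plus strand) encodes a small MAF protein, which has no activation domain and pairs with CNC factors such as NRF2 and BACH1. It read 3.46, 4.45 and 1.77 FPKM in control, 2.66, 4.47 and 1.59 in Taz KO, and 4.06, 9.83 and 3.95 in double KO. In every group library 2 was the highest and library 3 the lowest, and double KO overlapped control. The difference of double KO from control was 0.74 (SE 0.43, 95% interval -0.24 to 1.73), with an adjusted p by limma of 0.233 without and 0.00484 with the replicate block. Against Taz KO it was 0.89 (SE 0.43), with 0.204 without and 0.00326 with the block by limma. Between same-numbered libraries, double KO was 1.17-, 2.21- and 2.22-fold control. Taz KO against control gave -0.15 (adjusted p = 0.968 by limma). Batf3 (chromosome 1, plus strand), which encodes a partner of JUN in dendritic cells and other immune cells, had group totals of 6, 5 and 5 reads, and its values of 0.0589 to 0.253 FPKM in control, 0.0643 to 0.153 in Taz KO, with 0.0716 to 0.129 in double KO allow no comparison.

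**Figure D2:**
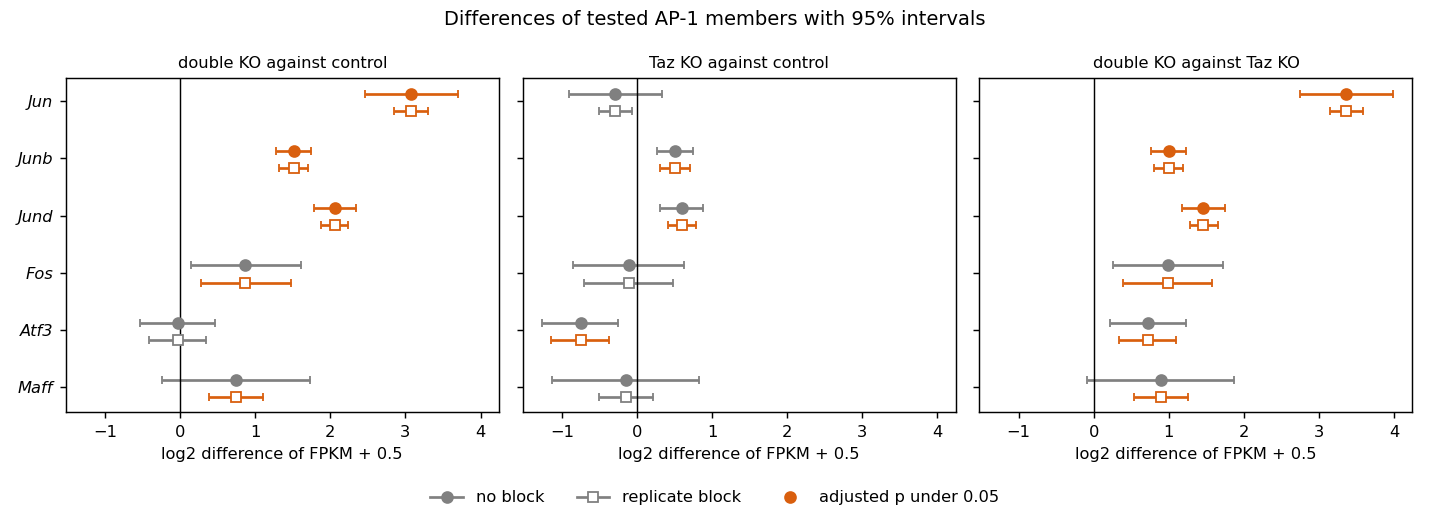
Differences of the 6 tested members in the 3 comparisons on the log2(FPKM + 0.5) scale, with 95% intervals, without a block (filled circles) and with the replicate number as a block (open squares). Orange marks an adjusted p under 0.05: Jun, Junb and Jund pass in both comparisons of double KO with either fit, and Fos and Maff pass there only with the block. Also only with the block, Atf3 passes in double KO against Taz KO, and Junb, Jund and Atf3 pass in Taz KO against control.

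Double KO against control thus gave 3 members higher and 0 lower without the block, and 5 higher and 0 lower with it, beside 52.4% of all genes called with the block (24.2% higher, 28.1% lower). Libraries did not overlap between double KO and control in 4 of the 6 tested members, Jun, Junb, Jund and Fos, all higher, beside 45.6% of all genes without overlap and 21.7% without overlap and higher. Double KO against Taz KO gave 3 higher and 0 lower beside 13.9% of genes called (6.42% higher, 7.45% lower). With the block it gave 6 higher and 0 lower beside 42.4% of genes called, 16.8% higher. Its median over the 6 tested members was 0.99, and -0.04 over all genes. Double KO did not overlap Taz KO in 5 of the 6, all higher, beside 30.6% of all genes without overlap and 14.1% without overlap and higher. The 2 comparisons of double KO share the double KO libraries.

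Taz KO against control called 0 of 6 members with limma, beside 1.28% of all genes (0.720% higher, 0.565% lower), and the unadjusted p was under 0.05 in 3 of them. With the replicate block Junb and Jund were called higher and Atf3 lower, beside 11.8% of genes called, 7.78% higher and 4.05% lower. Among the 6 tested members the same 3 were those whose groups did not overlap, beside 18.7% of genes without overlap, 10.9% higher and 7.84% lower.

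Junb and Jund both lie on chromosome 8, whose genes stood higher in both knockout groups, so the 2 genes were read against their chromosome. Over 668 other tested genes of chromosome 8 the median log2 difference was 0.30 in double KO against control and 0.35 in Taz KO against control, with 36.5% and 7.93% called higher. Between double KO and Taz KO it was -0.03. Relative to the median of their chromosome in each library, Junb was higher by 1.20 (SE 0.14, adjusted p = 0.000783) and Jund by 1.75 (SE 0.15, adjusted p = 0.000224) in double KO against control by limma. In Taz KO against control the same values were 0.16 (adjusted p = 0.865) and 0.25 (adjusted p = 0.725) by limma, well under the 0.51 and 0.60 before. Relative to their chromosome, both genes were thus called in double KO against control and neither in Taz KO against control. Without the block, neither had been called in Taz KO against control before (adjusted p = 0.0580 and 0.0615 by limma in all 9 libraries). The replicate block, which did call both there, was not fitted relative to the chromosome. Double KO against Taz KO kept 1.03 for Junb and 1.50 for Jund (adjusted p = 0.00324 and 0.00117 by limma).

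**Figure D3:**
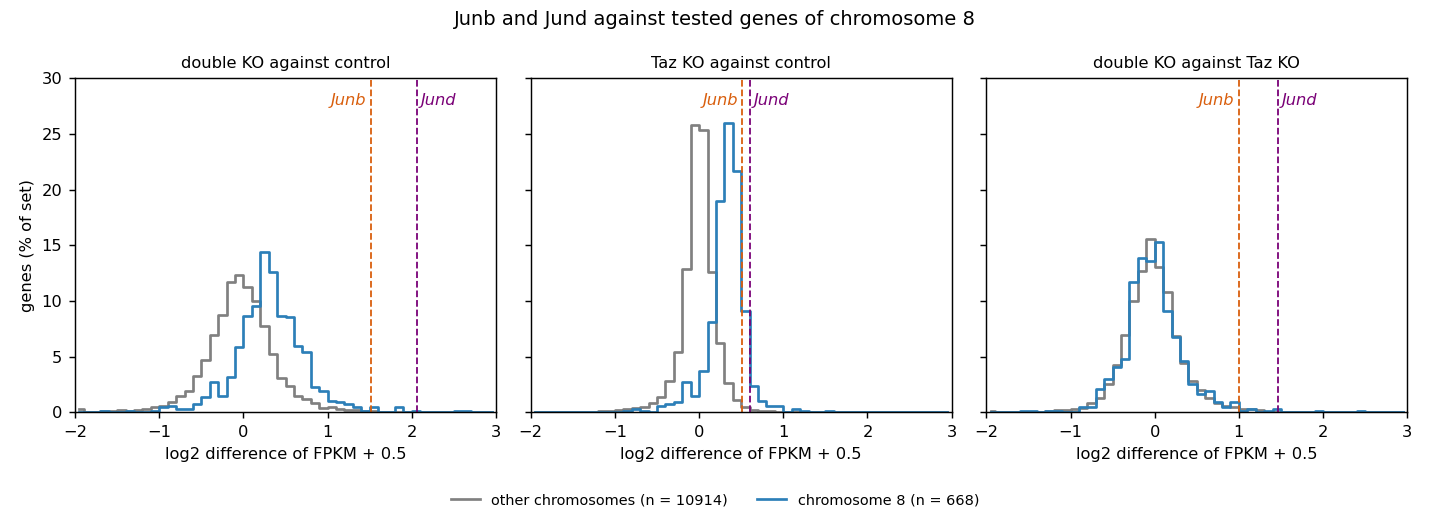
Share of tested genes by log2 difference for chromosome 8 (668 genes without members, blue) and the other chromosomes (10914 genes, grey), in bins of the log2(FPKM + 0.5) difference. Dashed lines mark Junb and Jund: they lie in the upper tail of chromosome 8 in both comparisons of double KO, and in Taz KO against control they rank 92 and 36 of its 670 genes.

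Among the 670 tested genes of chromosome 8, Jund ranked 4 and Junb 11 from the highest in double KO against control, and 36 and 92 in Taz KO against control. In double KO against control no tested gene within 200 kb stood as high as Junb or Jund. Within 200 kb of Junb, 20 tested neighbours had a median difference of 0.14 in double KO against control, the highest being Hook2 at 0.99, with 6 called higher and 0 lower. Around Jund, 21 neighbours had a median of 0.12, the highest being Mast3 at 0.92, with 5 called higher and 1 lower. These neighbours are named only as the highest. In Taz KO against control the median was 0.34 in both windows, and some neighbours stood above the member, up to Hook2 at 0.64 beside Junb and Gm3336 at 1.19 beside Jund. Jun had 2 tested neighbours, Mysm1 (6.57 to 9.52 FPKM, adjusted p = 0.00769 by limma) and Tek (5.10 to 1.65 FPKM, adjusted p = 0.00285 by limma), which went opposite ways. Chromosome 4 as a whole had a median of -0.06, and Jun ranked 1 of its 793 genes.

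Overlapping genes could add reads, since the strand setting of the counting is not given in the sources used here. Junb overlaps Prdx2 on the opposite strand, a highly expressed peroxiredoxin gene at 94.3 ± 15.4 FPKM in control, 131 ± 26.6 in Taz KO, with 116 ± 20.8 in double KO. The order of its means differs from that of Junb, and whether Prdx2 reads add to the Junb values was not tested. The antisense gene Gm11175 at Jund was listed at 0 in all 9 libraries, and Junos, antisense to Jun, was not matched in the table. Fosl1 overlaps Ccdc85b on the opposite strand, at 16.4 ± 1.44, 15.6 ± 1.61 and 13.8 ± 2.24 FPKM.

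On the FPKM scale, which corrects for length by gene models that are not given, the make-up of the JUN pool also differed. With Jun taken as 3189 bases, the values imply 1840 for Junb and 2878 for Jund, longer than its GENCODE span. Jun, Junb and Jund summed to 31.3 ± 2.00 FPKM in control, 45.8 ± 5.39 in Taz KO, with 137 ± 17.3 in double KO. Jund made up most of the sum throughout, at 72.3 ± 2.24%, 75.5 ± 2.44% and 70.2 ± 2.18%. Jun made up 6.70 ± 1.81% in control, 3.59 ± 1.23% in Taz KO, with 15.5 ± 2.11% in double KO. Its lowest share in double KO, 13.1%, exceeded its highest elsewhere, 8.79%. The share of Junb was 21.0 ± 2.38%, 20.9 ± 3.08% and 14.3 ± 1.25%. The 4 FOS genes summed to 3.70 ± 0.476, 3.52 ± 1.24 and 7.51 ± 3.36 FPKM, so that JUN transcripts outnumbered FOS transcripts by 8.51 ± 0.796, 13.9 ± 3.91 and 19.9 ± 5.43 to 1. This ratio overlapped between Taz KO and double KO, at 18.3 in Taz KO 1 and 13.8 in double KO 2.

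**Figure D4:**
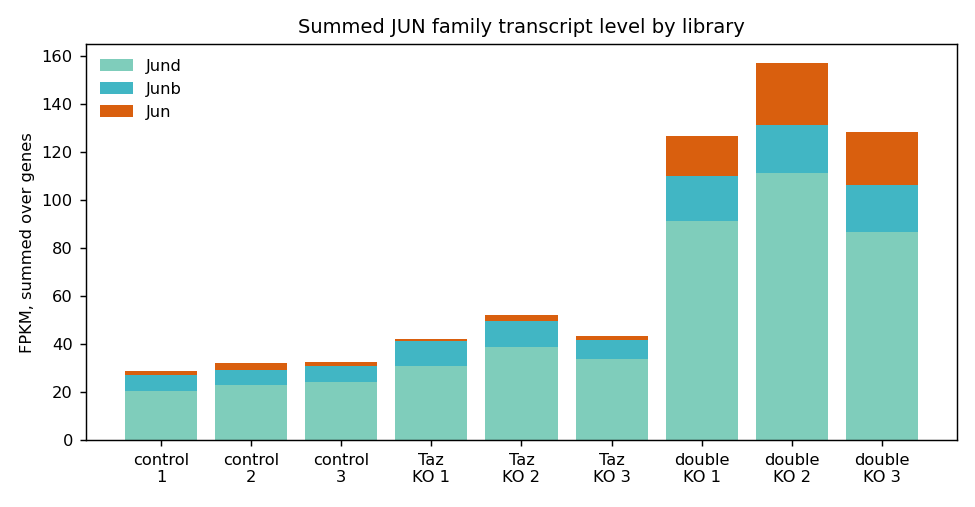
Summed FPKM of Jund, Junb and Jun in each of the 9 libraries, stacked from 0. The 3 double KO libraries reach 127 to 157 FPKM, above the highest Taz KO library at 52.0, and the Jun segment is widest in double KO.

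In control the members ranked by mean FPKM as Jund, Junb, Maff, Fos, Jun, Atf3, Fosl2, Fosl1, Batf3 and Fosb. Maff, Fos, Jun and Atf3 did not separate beyond their spread, since their libraries overlapped from each gene to the next, and the same held for Fosl1, Batf3 and Fosb. Taz KO kept the order of the 6 tested members, but its Atf3 libraries all lay below its Jun libraries (0.411 to 0.992 against 1.01 to 2.52 FPKM). In double KO, Jund was followed by Jun and Junb, whose libraries overlapped (16.6 to 25.8 against 18.8 to 20.2 FPKM), and then by Maff and Fos, whose libraries also overlapped. Jun thus moved from below Fos and Maff in mean level to the level of Junb.

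The list of 26 immediate-early genes outside the family had 24 tested, of which 9 were higher and 2 lower in double KO against control (12 and 4 with the replicate block), beside 12.4% of all genes higher and 12.9% lower. The median was 0.48 in the list and -0.02 over all genes. Dusp1, a phosphatase that switches off MAP kinases, rose from 22.3 ± 0.569 to 61.2 ± 4.15 FPKM, or 1.44 on the log2(FPKM + 0.5) scale (adjusted p = 5.33e-05 by limma). Rhob, a small GTPase, rose from 6.42 ± 0.705 to 20.5 ± 5.48 FPKM (adjusted p = 0.000812 by limma). Klf6, a zinc finger factor, rose from 13.8 ± 0.806 to 27.7 ± 2.26 FPKM (adjusted p = 0.000171 by limma). Cyr61 fell from 3.52 ± 0.215 to 0.344 ± 0.0848 FPKM and Ctgf from 7.33 ± 0.752 to 3.21 ± 0.391 FPKM, and both are classical YAP and TAZ target genes that encode secreted matricellular proteins. Egr1, which like Fos is induced through SRF and ternary complex factors, went from 2.05 ± 0.621 to 1.10 ± 0.976 FPKM, with an adjusted p by limma of 0.154 without and 0.0446 with the replicate block, and so lay on the opposite side of 0 from Jun. Egr1 was singled out after its values were seen.

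Against control, Taz KO had 0 higher and 2 lower, Cyr61 and Ctgf (2 and 5 with the replicate block) in the same list, and a median of -0.08. Double KO against Taz KO had 10 higher and 1 lower (13 and 2 with the block), beside 6.42% and 7.45% of all genes, with a median of 0.49. There Klf6 and Dusp1 rose by 0.95 and 1.13 and Btg2, an antiproliferative gene, by 1.19. Of the 9 genes called higher against control, 8 (all but Zfp36) were also called higher against Taz KO, and 0 of the 9 were called in Taz KO against control. With the replicate block, Dusp1 (0.31, adjusted p = 0.0206 by limma) and Btg2 (-0.61, adjusted p = 0.0281 by limma) were called in that comparison, in opposite directions.

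**Figure D5:**
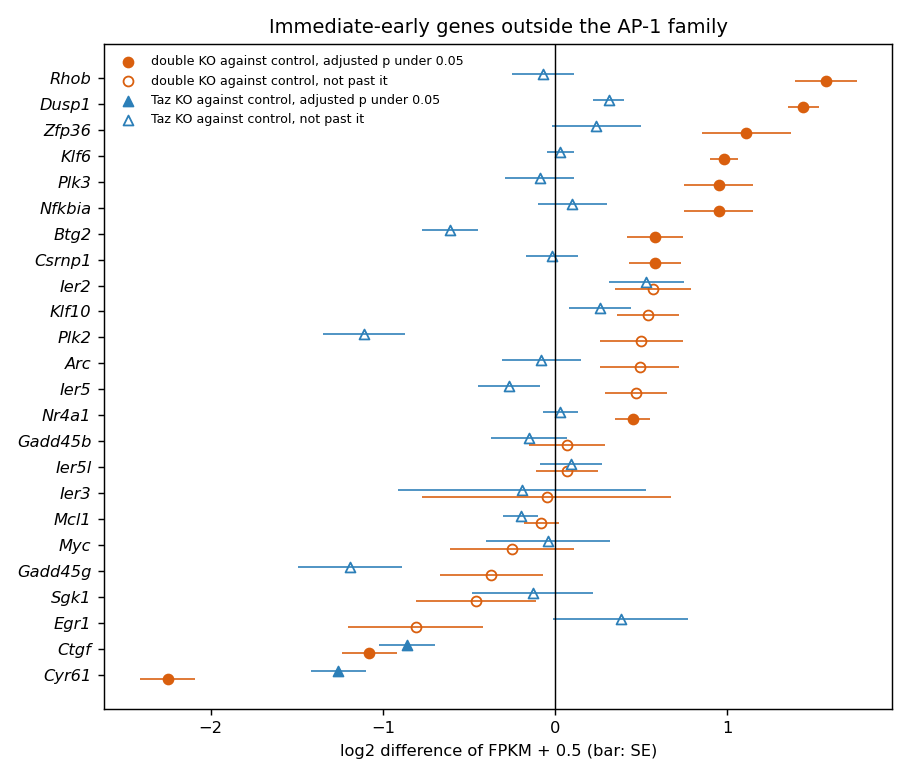
Differences of the 24 tested immediate-early genes outside the AP-1 family on the log2(FPKM + 0.5) scale, with SE, in double KO (circles) and Taz KO (triangles) against control, which share the control libraries. Filled symbols have an adjusted p under 0.05: 9 genes lie to the right and 2 to the left among the circles, and only Cyr61 and Ctgf are filled among the triangles.

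Of 24 other bZIP partners listed, 16 were tested and 3 were higher and 1 lower in double KO against control (5 and 4 with the replicate block), a share near the 25.3% of all genes called. Their median was -0.12. Batf, a partner of JUN in lymphocytes, was under the filter, with 0.238 ± 0.0240 FPKM in control cells against 0.734 ± 0.183 in double KO, and was named after its values were seen. Mafg, a small MAF like Maff, rose from 23.0 ± 1.27 to 36.3 ± 3.40 FPKM (adjusted p = 0.00175 by limma). Bach1, a repressor that pairs with small MAF proteins, rose from 14.2 ± 1.27 to 21.2 ± 1.28 FPKM (adjusted p = 0.00402 by limma). Nfe2l2, which encodes NRF2, rose from 35.1 ± 1.77 to 41.1 ± 0.956 FPKM (adjusted p = 0.0472 by limma). Atf4, the factor of the integrated stress response that can act on Atf3, fell from 179 ± 15.1 to 125 ± 4.12 FPKM (adjusted p = 0.0113 by limma). Against control, 0 of the 16 were called in Taz KO (0 higher and 3 lower with the block). Against Taz KO, double KO had 3 higher, namely Mafg, Bach1 and Mafk, and 0 lower (4 and 1 with the block). All genes gave 6.42% higher and 7.45% lower in that comparison.

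The kinase cascades that phosphorylate JUN and drive FOS had 20 of 21 listed genes tested. In double KO against control 2 were higher and 1 lower (6 and 3 with the replicate block), with a median of 0.01. Over all genes 12.4% were higher and 12.9% lower there (24.2% and 28.1% with the block). Map2k7, an activator of JNK that also lies on chromosome 8, went from 16.5 ± 1.51 to 25.8 ± 2.51 FPKM (adjusted p = 0.00268 by limma). Map2k1, which encodes the PD0325901 target MEK1, fell from 44.4 ± 1.47 to 36.9 ± 1.54 FPKM. Against control, Taz KO had 2 higher and 0 lower, beside 0.720% and 0.565% of all genes. Map2k7 was called there too, at 23.6 ± 1.47 FPKM (adjusted p = 0.0482 by limma). Double KO against Taz KO had 0 higher and 3 lower (5 and 7 with the block), beside 6.42% and 7.45% of all genes (16.8% and 25.6%). These are transcript levels, and kinase activity was not measured.

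The SRF, ternary complex and MRTF factors, which drive Fos and other serum-response genes, were all tested. In double KO against control 3 of 8 were higher and 0 lower (4 and 0 with the replicate block), with a median of 0.22. Over all genes 12.4% were higher and 12.9% lower there (24.2% and 28.1% with the block). Against Taz KO, limma called 0 of the 8 in double KO (4 higher and 0 lower with the block), and Taz KO against control 0 (0 higher and 1 lower with the block). Mkl2, an MRTF, went from 3.10 ± 0.214 to 4.54 ± 0.491 FPKM (adjusted p = 0.0125 by limma), and Mkl1 from 3.72 ± 0.139 to 4.53 ± 0.0970 FPKM. Mef2a, which encodes a MEF2 factor, rose from 3.05 ± 0.286 to 4.28 ± 0.256 FPKM (adjusted p = 0.0294 by limma). Against Taz KO, limma gave Mef2a an adjusted p of 0.0675 without and 0.0120 with the block. Mef2d, another MEF2 gene, had an adjusted p by limma of 0.141 without and 0.00405 with the block in double KO against control. Regulators of JUN and FOS protein, mostly parts of ubiquitin ligases, had 8 of 9 tested. In double KO against control 0 were higher and 1 lower (0 and 2 with the block), beside 12.4% and 12.9% of all genes. The lower gene was Trib1, a pseudokinase adaptor of the COP1 ligase, at 3.38 ± 0.337 in control and 1.88 ± 0.472 FPKM in double KO (adjusted p = 0.00810 by limma). Of the 4 TEAD genes, Tead2 rose from 26.7 ± 1.44 to 43.9 ± 0.393 FPKM (adjusted p = 0.000295 by limma) and the others were not called in double KO against control.

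Genes reported elsewhere as AP-1 targets did not move in a single direction. Of 24 listed, 12 were tested, with 4 higher and 2 lower in double KO against control (5 and 4 with the replicate block) and a median of 0.18. Over all genes 12.4% were higher and 12.9% lower there (24.2% and 28.1% with the block). Nqo1, an antioxidant enzyme gene, rose from 32.7 ± 9.79 to 116 ± 27.9 FPKM (adjusted p = 0.00155 by limma) and Hmox1, heme oxygenase, from 25.9 ± 1.91 to 50.5 ± 6.66 FPKM (adjusted p = 0.000579 by limma). Both lie on chromosome 8 and are also known targets of NRF2 and BACH1. Spp1, which encodes osteopontin, fell from 418 ± 34.9 to 183 ± 55.0 FPKM (adjusted p = 0.00261 by limma). In Taz KO against control 0 of the 12 were called (2 higher and 0 lower with the block). Double KO against Taz KO had 3 higher and 1 lower (4 and 3 with the block), beside 6.42% and 7.45% of all genes.

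Signs of handling and of other cell types were read beside the JUN genes. Heat shock genes, which rise with Fos and Jun when cells are stressed during collection, had 6 of 8 tested. In double KO against control 0 were higher and 1 lower (1 and 3 with the replicate block), beside 12.4% and 12.9% of all genes. The lower gene was Hspb1, from 171 ± 16.4 to 110 ± 12.6 FPKM (adjusted p = 0.0191 by limma), and the inducible Hspa1a and Hspa1b stayed under the filter, at means of 0.257 and 1.15 FPKM in control and 0.190 and 0.619 in double KO. Mitochondrial transcripts took 2.57 to 3.12% of recovered reads in control, 2.77 to 2.94% in Taz KO, with 3.51 to 3.65% in double KO. The part of handling in the JUN differences was not tested.

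Among marker lists, 5 of the 9 ESC genes were lower in double KO than in control (Dppa5a, Klf4, Sox2, Tdgf1 and Nanog) and 1, Zfp42, was higher (6 lower and 1 higher with the block). All genes gave 12.9% lower and 12.4% higher in that comparison (28.1% and 24.2% with the block). Fibroblast markers summed to 2.15 to 4.12 FPKM in control, 1.77 to 5.89 in Taz KO, with 3.17 to 10.9 in double KO. Lum, Dcn and Postn, which define fibroblasts, were listed at 0 in all 9 libraries, and 6 of the 8 fibroblast genes stayed under 1 FPKM throughout. Trophectoderm markers summed to 57.4 to 62.9, 62.2 to 71.2 and 96.2 to 114 FPKM, with Krt8 and Tfap2c called higher in double KO against control of 4 tested (3 higher and 1 lower with the block). Primitive endoderm markers summed to 1.94 to 2.84, 1.36 to 3.15 and 2.00 to 3.76 FPKM. Neuroectoderm markers summed to 16.0 to 31.1, 18.0 to 38.2 and 26.6 to 50.7 FPKM, with Nes called higher of 2 tested (2 with the block), and mesoderm markers to 5.0 to 7.39, 3.55 to 9.04 and 3.40 to 13.1 FPKM. The part of the ESC, trophectoderm and neuroectoderm markers in the JUN differences was not tested.

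The genes most like each JUN gene over the 9 libraries were found by Pearson correlation of log2(FPKM + 0.5). For Jun these were Mfsd11 (r = 0.9921), Apobr (0.9913), Bach1 (0.9880), Gdpgp1 (0.9879) and Fnbp1 (0.9876). Their changes were smaller: Apobr went from 1.25 ± 0.0895 FPKM in control to 3.69 ± 0.309 in double KO, and Fnbp1 from 10.4 ± 0.192 to 13.3 ± 0.319. For Junb they were Zfp319 (0.9897), Crispld2 (0.9862) and Arhgef18 (0.9860), all 3 on chromosome 8. For Jund they were Lrrc15 (0.9940), Nes (0.9920) and Rnf208 (0.9884), and none of these lies on chromosome 8. Lrrc15 rose from 1.76 ± 0.0515 in control to 3.58 ± 0.985 in Taz KO, with 12.5 ± 2.17 FPKM in double KO, the same order as Jund. The 3 double KO libraries stand apart for all of these genes, so each r mostly repeats that split and describes these 9 libraries.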

How the data were processed

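Poly(A) RNA of 9 libraries (3 control, 3 Taz KO, 3 double KO) had been sequenced with a directional kit on a NextSeq 500, per the labels' protocols. The authors deposited a single table of FPKM values per gene and library. Per the submitters' processing notes, the genome build was mm10 and the tools were DESeq2, HTSeq 0.6.1 and TopHat2 2.1.1, whose roles the notes do not state. For the annotation, strand setting and filters, nothing is given in the sources used here. Overlapping genes may therefore share reads. Deposited values could be written as whole reads in 24619 of 24621 genes above 0 (tolerance 0.001), on a scale set by the typical gene, and totals were 18.7 to 23.5 M reads.

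From these values, limma 3.58.1 in R 4.3.3 fitted group means to log2(FPKM + 0.5) in all 9 libraries with a mean-variance trend, for genes with a mean of at least 1 FPKM. Tests were two-sided, with Benjamini-Hochberg adjustment over 11674 genes and a threshold of 0.05. All adjusted p-values are limma's. Intervals are 95%. The script was tested on simulated data. Deviations from group means correlated at 0.192 to 0.711 in 9 pairs of libraries with the same number in the titles, and at -0.688 to 0.394 in 18 other pairs. This pairing was read from the values, because no label says what a number marks.

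Members and lists were chosen with earlier results of these data known. Named were all 10 members, Yap1 and Wwtr1, up to 4 called genes per list and comparison by adjusted p, and the 3 genes (5 for Jun) most like each called member. Gene positions come from GENCODE M21, matched by name, and sequences from RefSeq. Alternatives were pseudocounts of 0.1 and 1, no filter, the replicate block, 2 groups only, quantile and library-total scaling, voom on recovered reads, values relative to the chromosome, and each replicate left out. A gene of the kinase list is not reported here by name.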

Additional observations from a re-analysis of the deposited data

How the results depend on the processing

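Jun, Junb and Jund were called higher in both comparisons of double KO under all 19 alternatives. Their log2 differences from control ranged over 2.85 to 3.36, 1.20 to 1.57 and 1.75 to 2.20, with highest adjusted p-values by limma of 0.00233, 0.000870 and 0.000512. Members called were 3, 0 and 3 in double KO against control, Taz KO against control and double KO against Taz KO, and the replicate block gave 5, 3 and 6. In Taz KO against control, leaving out a replicate gave 0 to 1, and libraries numbered 1 and 3 only, an alternative chosen after seeing the data, gave 1 (Jund, adjusted p = 0.0428 by limma). In the comparisons of double KO, leaving out a replicate kept the count within 3 to 4. Genes called went from 2948, 150 and 1620 to 6112, 1381 and 4947 with the replicate block, and to 4889, 423 and 4277 with numbers 1 and 3 only. They were 88 and 635 with 2 groups only in both comparisons with Taz KO, and 74 relative to the chromosome in Taz KO against control. Leaving out a replicate gave 1505 to 3568, 11 to 230 and 482 to 2648. The difference of Atf3 in double KO against control was 0.01 with library-total scaling and -0.16 to 0.08 without a replicate. In Taz KO against control, Fos ranged from -0.35 to 0.20 and Maff from -0.47 to 0.16 without a replicate. In double KO against Taz KO, Fos was called with numbers 1 and 3 only (adjusted p = 0.0414 by limma) and Atf3 with quantile normalization (adjusted p = 0.0441 by limma). The cause of these shifts was not tested. Low read totals limit Fosb, Fosl1 and Batf3.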
